A study of Mus musculus with 8 samples.

Results

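The 10 genes described here are chaperones, folding enzymes and degradation factors of the endoplasmic reticulum (ER) together with the transcription factor gene *Xbp1*, and they are known as targets of ATF6 and XBP1. They were taken by name (*Hspa5*, *Hsp90b1*, *Calr*, *Pdia4*, *Creld2*, *Dnajb9*, *Sdf2l1*, *Edem1*, *Herpud1* and *Xbp1*) and matched by Ensembl gene ID to 10 of the 48795 genes in the files. Polyadenylated RNA was sequenced from peritoneal macrophages (pMacs) of 4 WT and 4 CD1d-KO mice, with 1 library per mouse and the replicate numbers 1, 2, 3 and 5 in each genotype. C57BL/6 is the WT strain named in the methods, though not for these libraries in particular. The methods name 2 CD1d-KO lines, a CD1d flox line crossed to PGK-Cre and B6.129S6-Del(3Cd1d2-Cd1d1)1Sbp/J. Which of them gave these libraries is not stated. CD1d-KO mice lack the antigen-presenting molecule CD1d in all cells, not in macrophages alone, and as a result they also lack NKT cells. Mice were matched for age and sex at 8 to 16 weeks, and the controls were called littermates. Cells came from peritoneal lavage, and the paper calls the pMacs of this experiment purified without saying how. Neither a stimulus nor bead enrichment is named for these libraries.

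Proteins that enter the ER are folded there by chaperones and disulfide-forming enzymes, and those that fail to fold are sent back to the cytosol for degradation (ER-associated degradation, ERAD). When unfolded proteins accumulate, the sensors IRE1, ATF6 and PERK switch on the unfolded protein response: IRE1 splices the *Xbp1* mRNA, ATF6 is cut into a transcription factor, and PERK, through phosphorylation of a translation initiation factor, raises translation of ATF4 and in turn expression of *Ddit3*, which encodes CHOP. The first 2 arms mainly drive ER chaperone and ERAD genes, whereas ATF4 and CHOP drive amino acid metabolism and stress genes and are also reached from kinases outside the ER. Gene-level counts measure mRNA abundance only, so neither the splicing of *Xbp1* nor the cutting of ATF6 can be read from them.

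Targets of ATF6 and XBP1 are known for short elements in front of their start sites, and those found in the 10 promoters are shown here as a description. Whether the elements bear on the levels in these libraries was not tested. All 10 genes had a promoter in the RefSeq table of GRCm38.p6, from 250 bases before to 50 bases after the start. The ER stress element ERSE, spelled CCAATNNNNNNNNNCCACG and searched on both strands, was found in 4 of the 10, against 0.119% of 32851 promoters. The 10 were chosen as known ATF6 and XBP1 targets, so this count is a description and not a test. Shares here and below are over promoters, whereas the listed genes are counted as genes. In the sequences that follow, written 5′ to 3′ on the strand of the gene with 20 bases on either side, the capitals mark the element, which reads as CGTGG followed by ATTGG when it lies on the opposite strand.
*Hspa5*, chr2:34772005-34772063, plus strand, element on the strand of the gene: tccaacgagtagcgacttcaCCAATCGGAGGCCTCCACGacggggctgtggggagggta
*Hsp90b1*, chr10:86705618-86705676, minus strand, element on the strand of the gene: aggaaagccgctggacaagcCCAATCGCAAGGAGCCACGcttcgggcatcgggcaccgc
*Hsp90b1*, chr10:86705513-86705571, minus strand, element on the opposite strand: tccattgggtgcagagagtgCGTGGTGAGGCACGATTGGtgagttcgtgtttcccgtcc
*Calr*, chr8:84847055-84847113, minus strand, element on the opposite strand: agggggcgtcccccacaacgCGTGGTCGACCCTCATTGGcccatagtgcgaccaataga
*Creld2*, chr15:88819500-88819558, plus strand, element on the opposite strand: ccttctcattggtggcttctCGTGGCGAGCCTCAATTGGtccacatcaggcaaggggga

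The first capital base lay 65 bases before the RefSeq start of *Hspa5*, 212 and 107 bases before that of *Hsp90b1*, 162 before that of *Calr* and 126 before that of *Creld2*. *Herpud1* held no ERSE in this window but a related element, ERSE-II (ATTGGNCCACG), 52 bases before its start, and this element was present in 0.0365% of all promoters. *Herpud1* was also the gene among the 10 with a match to the composite C/EBP-ATF site bound by ATF4 and CHOP heterodimers (TGATGNAA), 112 bases before its start on the opposite strand, against 3.97% of all promoters. These matches did not overlap each other.
*Herpud1*, chr8:94386357-94386407, plus strand, ERSE-II on the strand of the gene: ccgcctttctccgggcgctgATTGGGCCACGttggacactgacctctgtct
*Herpud1*, chr8:94386297-94386344, plus strand, composite site on the opposite strand: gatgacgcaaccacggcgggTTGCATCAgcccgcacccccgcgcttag

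The unfolded protein response element TGACGTGG was in none of the 10 promoters and in 0.676% of all. A match is a run of letters and not a site shown to be bound. Among the other ER genes with a promoter in the table, ERSE was found in *Canx* and *Dnajc3* of 10 further chaperones, *Pdia6* of 9 disulfide enzymes and *Derl3* and *Syvn1* of 13 ERAD genes. None of 19 genes of the ATF4 and CHOP arm held ERSE, and 7 of these 19 held the composite site.

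Between 13698864 and 19059432 expected counts were assigned to genes in each library, and the libraries with replicate number 1 were the deepest in both genotypes. The macrophage marker *Adgre1*, which encodes F4/80, ran from 10103 to 14182 normalised counts (counts scaled by TMM to the mean library size), and *Gata6*, which marks large peritoneal macrophages, from 347 to 779. Of 8 markers listed for plasma cells, which are rich in ER, *Jchain* had at most 7 and *Tnfrsf17* at most 3 counts in any library, whereas the other 6, several of them shared with B cells, were expressed, with means from 126 (*Mzb1*) to 1062 (*Igkc*) and 1228 (*Prdm1*) normalised counts. The deleted gene *Cd1d1* stood at 68.2 to 175 normalised counts in WT and at 0 to 1.14 in CD1d-KO replicates 2, 3 and 5. It reached 60.6 in the library labelled CD1d-KO replicate 1, so results are also given without replicate 1.

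Per length, the ER genes were among the more abundant mRNAs of pMacs. In TPM values, which count transcripts per fixed total and correct for gene length, *Hspa5* had a mean level of 1394 over the 8 libraries (lowest 1153, highest 1668) and ranked 64 among the 13040 genes tested. The lowest of the 10, *Dnajb9*, ranked 1292. *Calr* followed with 888 TPM (619 to 1094) and *Hsp90b1* with 735 TPM (579 to 883), and each of these 3 was above the next in all 8 libraries. After a gap came *Xbp1* with 185 TPM, *Pdia4* with 158, *Edem1* with 125, *Creld2* with 115, *Sdf2l1* with 111, *Herpud1* with 103 and *Dnajb9* with 89.7. *Pdia4* exceeded *Edem1* in all 8 libraries, whereas each of the other neighbours in this lower range kept its place in 6 of 8, so those levels did not separate. Together the 10 genes made up 0.353% to 0.455% of the TPM of a library, with the lowest share in WT replicate 3 and the highest in CD1d-KO replicate 2.

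The genotypes were then compared in a model with replicate number and genotype, fitted to the 13040 genes that passed a filter on low counts, which all 10 ER genes passed. None of the 10 was called in CD1d-KO against WT pMacs, where a call needed a fold change above 1.5 and a Benjamini-Hochberg adjusted p below 0.01 in edgeR, and 5 of all genes did so (0.0383%). These are the thresholds of the paper, which used DESeq2 and reports many more genes. DESeq2 as run here called 106 of all genes at them and 0 of the 10. With the adjusted p under 0.05 as the only condition, the edgeR count was again 0 of 10, against 0.406% of all genes, and DESeq2 gave 1 of 10, *Herpud1*, against 2.96% of the genes to which it gave an adjusted p. With an unadjusted p under 0.05 in edgeR, 1 of the 10 was higher in CD1d-KO pMacs, again *Herpud1*, against 7.35% of all genes, and 0 were lower. In 3 of the 10, *Hspa5*, *Herpud1* and *Dnajb9*, the CD1d-KO library was the higher one of all 4 pairs, against 10.6% of all genes. No gene of the 10 had CD1d-KO and WT libraries that did not overlap, against 1.95% of all genes. The median log2 fold change of the 10 was 0.0079 and that of all genes tested 0.0047. Without replicate 1 the median was 0.0091, with 0 of the 10 at an adjusted p under 0.05 (0.0926% of all genes in that edgeR fit) and 1 higher with an unadjusted p under 0.05 (5.55% of all genes).

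**Figure D1:**
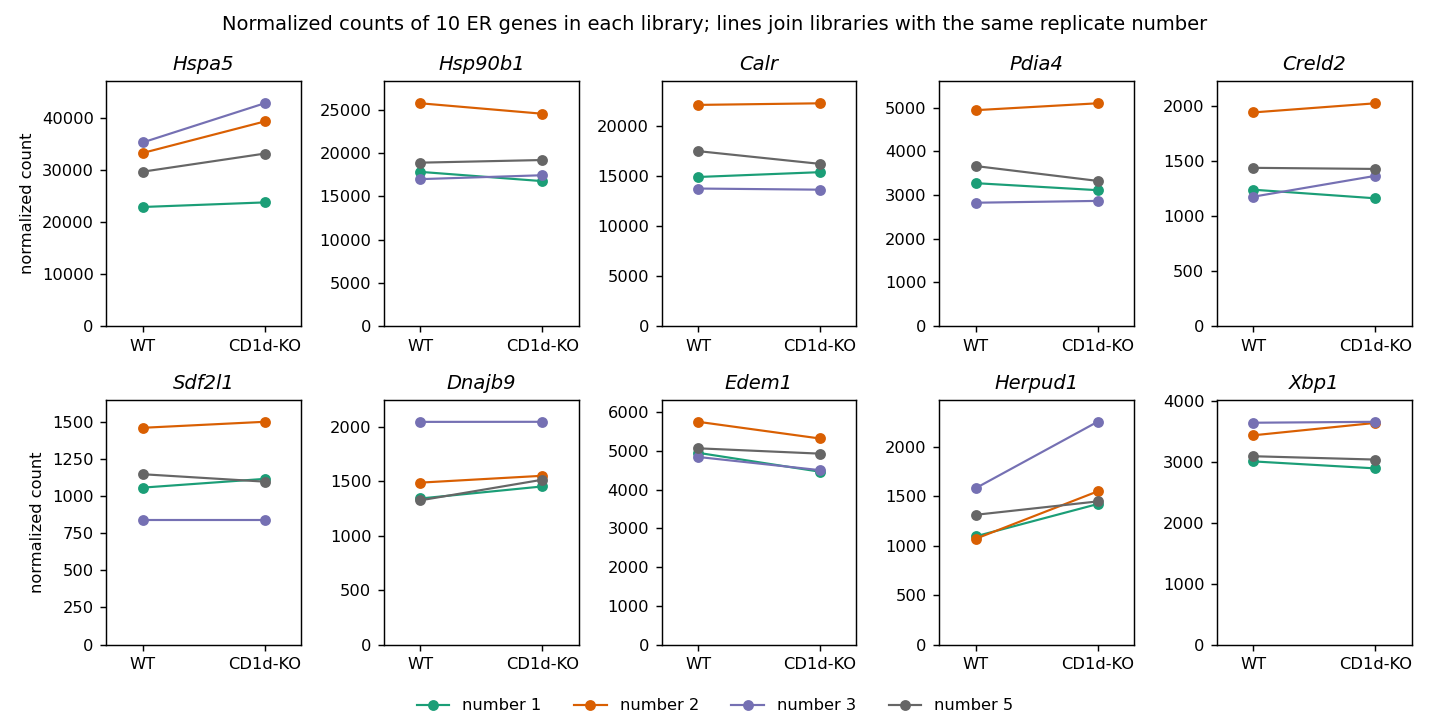
Normalised counts (vertical axes, from 0) of the 10 ER genes in WT and CD1d-KO libraries, with 1 point per library and lines joining libraries of the same replicate number. The lines of *Herpud1* all slope upwards, and for most other genes the 4 lines lie at different heights and run nearly level.

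*Hspa5* (ENSMUSG00000026864, chromosome 2 of GRCm38 from 34771970 to 34777547) encodes BiP, the Hsp70 of the ER lumen, which binds unfolded proteins and holds the sensors inactive. Its normalised counts in WT replicates 1, 2, 3 and 5 were 22836, 33205, 35227 and 29612, and in the CD1d-KO replicates of the same numbers 23714, 39240, 42729 and 33076. The CD1d-KO library was the higher of each pair, but the groups overlapped, as the lowest libraries of both genotypes were those with number 1. The log2 fold change was 0.18 (95% interval -0.01 to 0.37, edgeR adjusted p = 0.414).

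*Hsp90b1* (ENSMUSG00000020048, chromosome 10 from 86690209 to 86705509) encodes the Hsp90 of the ER. WT libraries had 17843, 25782, 17003 and 18910 normalised counts, and CD1d-KO libraries 16774, 24575, 17454 and 19215. Replicate number 2 was the highest in both genotypes and the others lay close together, with no separation of the genotypes (log2 fold change -0.02, 95% interval -0.20 to 0.15, edgeR adjusted p = 0.935). *Calr* (ENSMUSG00000003814, chromosome 8 from 84841850 to 84846934) encodes calreticulin, a lectin chaperone that holds glycoproteins and calcium. Its normalised counts of 14897, 22101, 13741 and 17480 in WT stood beside 15377, 22262, 13628 and 16209 in CD1d-KO pMacs. The order of the replicate numbers was the same in both genotypes, and the log2 fold change was -0.02 (95% interval -0.19 to 0.16, edgeR adjusted p = 0.956).

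The folding enzymes gave a similar picture. *Pdia4* (ENSMUSG00000025823, chromosome 6 from 47796141 to 47813430), a protein disulfide isomerase, had 3269, 4939, 2821 and 3660 normalised counts in WT libraries against 3109, 5096, 2863 and 3321 in CD1d-KO libraries. *Creld2* (ENSMUSG00000023272, chromosome 15 from 88819646 to 88826683), a disulfide isomerase-like protein of the ER, had 1237, 1939, 1174 and 1436 in WT and 1159, 2021, 1363 and 1426 in CD1d-KO pMacs. Both genes were highest in replicate number 2 of either genotype, and the pairs split evenly, 2 with more in CD1d-KO and 2 with less. The log2 fold changes were -0.04 for *Pdia4* (95% interval -0.20 to 0.12) and 0.04 for *Creld2* (-0.13 to 0.21), with edgeR adjusted p of 0.889 and 0.873.

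*Dnajb9* and *Sdf2l1* encode partners of BiP. *Dnajb9* (ENSMUSG00000014905, chromosome 12 from 44205559 to 44210326), a J-domain protein, had 1344, 1490, 2048 and 1327 normalised counts in WT libraries against 1454, 1552, 2049 and 1516 in CD1d-KO libraries. Replicate number 3 stood above the rest in both genotypes, at nearly the same level in the 2 libraries, so that its higher level in each pair includes a pair that was almost equal. *Sdf2l1* (ENSMUSG00000022769, chromosome 16 from 17130138 to 17132383), which acts with ER J-domain proteins to keep BiP clients soluble, had 1056, 1458, 841 and 1146 normalised counts in WT libraries against 1115, 1499, 841 and 1096 in CD1d-KO libraries. It was lowest where *Dnajb9* was highest, in number 3, and highest in number 2. The log2 fold changes were 0.09 for *Dnajb9* (95% interval -0.06 to 0.24, edgeR adjusted p = 0.629) and 0.01 for *Sdf2l1* (-0.13 to 0.16, edgeR adjusted p = 0.955).

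The pair of degradation factors pointed in opposite directions. *Edem1* (ENSMUSG00000030104, chromosome 6 from 108828641 to 108859356) encodes a lectin-like protein that marks misfolded glycoproteins for disposal. Its 4 WT libraries had 4957, 5759, 4850 and 5074 normalised counts, and its CD1d-KO libraries 4469, 5327, 4509 and 4936. The CD1d-KO library was the lower of each pair, the groups overlapped, and the log2 fold change was -0.10 (95% interval -0.26 to 0.05, edgeR adjusted p = 0.595). *Herpud1* (ENSMUSG00000031770, chromosome 8 from 94386438 to 94395377) encodes a membrane protein that assembles the ERAD ubiquitin ligase complex, and its promoter is the one with ERSE-II and the composite site. Its normalised counts were 1095, 1070, 1582 and 1312 in WT and 1421, 1549, 2253 and 1448 in CD1d-KO pMacs. Each CD1d-KO library exceeded its WT partner, and the groups overlapped because WT replicate 3 lay above 3 of the CD1d-KO libraries. The mean level was 1265 ± 238 in WT and 1668 ± 394 in CD1d-KO pMacs (SD, n = 4 each).

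The log2 fold change of *Herpud1* was 0.39 (standard error 0.08, 95% interval 0.20 to 0.58), with an unadjusted p = 0.00158 and an adjusted p = 0.122 over all genes in edgeR, so it missed the threshold. Its adjusted p fell to 0.011 when the filter on counts was left out and to 0.014 in DESeq2. Without replicate 1, the pair with the *Cd1d1* counts, its log2 fold change was 0.40 (unadjusted p = 0.00611, edgeR adjusted p = 0.319), and that of *Hspa5* was 0.23 (unadjusted p = 0.059, adjusted p = 0.564). Over the 20 alternative settings the log2 fold change of *Herpud1* stayed between 0.21 and 0.53.

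*Xbp1* (ENSMUSG00000020484, chromosome 11 from 5520659 to 5525893) encodes the transcription factor made by IRE1 splicing. Normalised counts in WT libraries were 3005, 3434, 3640 and 3090, and those in CD1d-KO libraries 2890, 3637, 3655 and 3035. Neither genotype was consistently higher, with 2 pairs in each direction, and the log2 fold change was 0.0017 (95% interval -0.15 to 0.15, edgeR adjusted p = 0.993). In the fit with the replicate block, the intervals of all 10 genes lay within a fold change of 1.5 in either direction, that is within -0.585 and 0.585 on the log2 scale. The lowest bound was -0.26 and the highest 0.58, the upper bound of *Herpud1*, and the highest bound of the other 9 genes was 0.37. The share of all genes with such intervals was not counted, so this does not set the 10 apart. Intervals were not made without the block. There the unadjusted p in edgeR was 0.366 for *Hspa5* and 0.057 for *Herpud1*, against 0.0553 and 0.00158 with it.

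**Figure D2:**
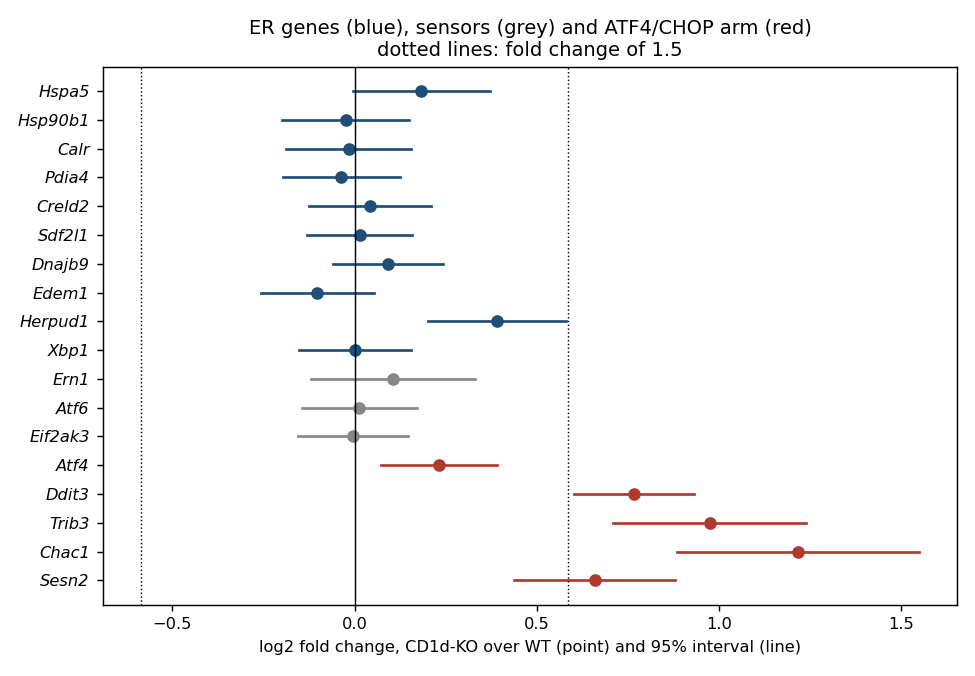
Log2 fold change of CD1d-KO over WT (points) with its 95% interval (lines) for the 10 ER genes (blue), 3 sensors (grey) and 5 genes of the ATF4 and CHOP arm (red), with dotted lines at a fold change of 1.5. The intervals of the ER genes lie between the dotted lines, and the whole intervals of *Ddit3*, *Trib3* and *Chac1* lie to the right of them. The 4 genes of the arm with log2 fold changes below 0 are not drawn.

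The ER genes varied with the replicate number. On the log2 CPM scale the SD among the means of the 4 numbers was larger than the mean absolute difference within pairs for 9 of the 10 genes, and *Herpud1* was the exception. The same comparison was not made over all genes, so this count describes the 10 and does not set them apart. The 3 replicate coefficients of the same model were tested together, which asks whether the 4 replicate numbers share 1 level. At an adjusted p under 0.01, 2 of the 10 genes differed among numbers, *Sdf2l1* (adjusted p = 0.00652) and *Pdia4* (adjusted p = 0.00688), against 3.93% of all genes (edgeR). At an adjusted p under 0.05 it was 8 of 10, all but *Xbp1* and *Edem1*, against 15.6% of all genes. In normalised counts averaged over both genotypes, the highest number exceeded the lowest by 1.77-fold for *Pdia4*, 1.76-fold for *Sdf2l1*, 1.68-fold for *Hspa5*, 1.65-fold for *Creld2* and 1.62-fold for *Calr*. For *Hsp90b1*, *Dnajb9* and *Herpud1* the ratio lay between 1.46 and 1.52, and for *Xbp1* and *Edem1* it was 1.24 and 1.18.

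The replicate numbers did not act on the 10 genes alike. *Hsp90b1*, *Calr*, *Pdia4*, *Creld2*, *Sdf2l1* and *Edem1* were highest in number 2 in both WT and CD1d-KO pMacs. *Hspa5*, *Dnajb9*, *Herpud1* and *Xbp1* were highest in number 3 in both genotypes. In number 3, *Sdf2l1*, *Pdia4* and *Calr* were at their lowest in both genotypes. On the log2 CPM scale *Sdf2l1* lay 0.41 above its mean in number 2 and 0.40 below it in number 3, while *Dnajb9* lay 0.05 below its mean in number 2 and 0.38 above it in number 3. *Hspa5* was above its mean in both, by 0.18 in number 2 and 0.29 in number 3, and 0.45 below it in number 1.

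**Figure D3:**
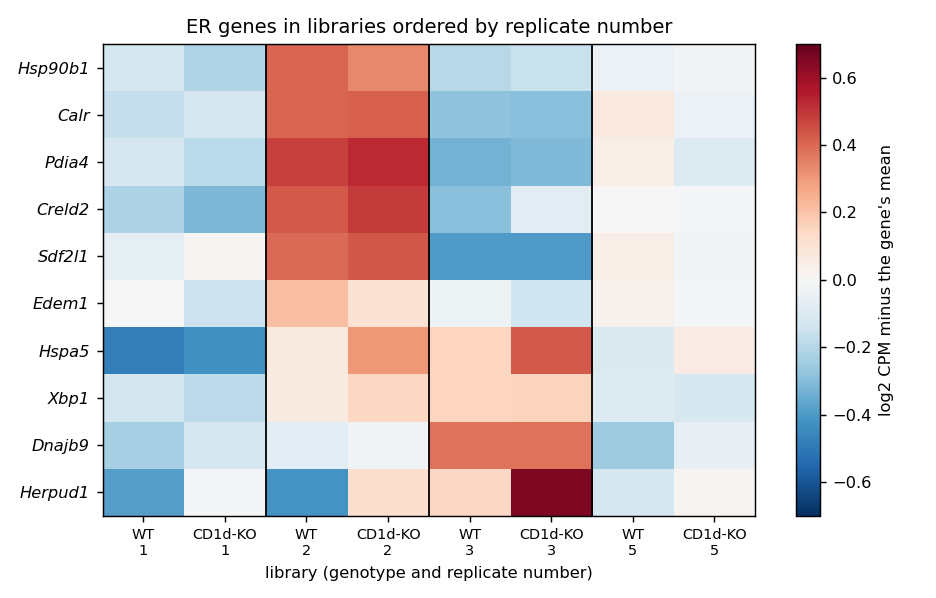
Log2 CPM of each ER gene minus its mean over the 8 libraries (colour, red above and blue below the mean), with libraries ordered by replicate number and vertical lines between numbers. The upper 6 genes are red in both libraries of number 2, and *Dnajb9* and *Herpud1* are red in both libraries of number 3.

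Split in this way, which was done after the values had been seen, the 6 genes of the first set correlated with each other over the 8 libraries with Pearson's r from 0.763 to 0.991 (15 pairs of genes), and the 4 genes of the second set with r from 0.511 to 0.868 (6 pairs). Between the sets r ran from -0.635 to 0.484 (24 pairs). These are descriptions over 8 libraries that share their normalisation and their pairing by number. The closest pair was *Pdia4* with *Calr*. Among all genes with a mean of at least 100 normalised counts, those most like the mean of the 10 ER genes were *Dda1* (r = 0.982), *Pdia6* (r = 0.976), *Lman2* (r = 0.9746), *Sltm* (r = 0.967) and *BC031181* (r = 0.960) over the 8 libraries. *Pdia6* is itself a disulfide isomerase of the ER, and *Lman2* a cargo lectin of the secretory pathway.

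The count of ER genes that differed among numbers rested on numbers 1, 2 and 3. Without replicate 3 it fell from 8 to 1 at an adjusted p under 0.05 (*Creld2*), while that of all genes fell to 2.5%. Without replicate 2 it was 3 (*Hspa5*, *Dnajb9* and *Herpud1*, against 14.2% of all genes), without replicate 1 it was 5 (against 6.26%) and without replicate 5 it was 8 (against 14.6%). At an adjusted p under 0.01 it was 0 without replicate 1, 2 or 3 and 2 without replicate 5. Other cell types also moved with number. The summed level of 10 B cell markers was lowest in number 2 (3217 normalised counts in WT and 2087 in CD1d-KO) and highest in number 5 (8960 and 14767), and 8 of the 10 differed among numbers at an adjusted p under 0.05 in edgeR. The 8 plasma cell markers summed to between 2502 and 5540, of which *Prdm1*, a regulator that other cells also use, made up 871 to 1513, and 6 of the 6 tested differed among numbers. The part of these cells in the ER gene levels was not tested, and in bulk libraries fewer cells of a type and less RNA per cell cannot be told apart.

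Other genes of the pathway were read from the same fit. Of 7 sensors and their partners, 0 had an unadjusted p under 0.05 in edgeR. *Ern1*, which encodes IRE1, had a log2 fold change of 0.11 (95% interval -0.12 to 0.33), *Atf6* of 0.01 (-0.14 to 0.17) and *Eif2ak3*, which encodes PERK, of -0.0037 (-0.15 to 0.15). Of 13 further ER chaperones and their cofactors, 1 was higher and 0 lower at an unadjusted p under 0.05, with a median log2 fold change of -0.04. The gene was *Sil1*, the nucleotide exchange factor of BiP, with 213 ± 45.6 normalised counts in WT libraries and 263 ± 27.9 in CD1d-KO libraries (SD, n = 4 each, log2 fold change 0.33, edgeR adjusted p = 0.327). Of 11 disulfide enzymes, 0 passed in either direction, and the median was -0.02.

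On the ERAD list, 2 of 18 genes were higher and 1 lower at an unadjusted p under 0.05. One higher gene was *Fam129a* (log2 fold change 0.49, edgeR adjusted p = 0.233), which was listed here although it is not an established ERAD factor. The other was *Derl1*, a channel component (0.19, adjusted p = 0.368). The lower one was *Vcp*, the ATPase that pulls substrates out of the membrane (-0.20, adjusted p = 0.358). Of 20 genes of protein translocation into the ER, 0 were higher and 4 lower at that level, *Srp14*, *Srp54a*, *Ssr1* and *Sec61b*, with log2 fold changes from -0.25 to -0.16. Over all genes, 5.01% were lower at that level. The median of the translocation genes was -0.06, and in 9 of the 20 the CD1d-KO library was the lower one of all 4 pairs, against 10.1% of all genes. None of the genes on these 5 lists had an adjusted p under 0.05 for genotype in edgeR.

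Heat shock genes and the ATF4 and CHOP arm were also read from this fit. Cytosolic heat shock genes driven by HSF1 had a median log2 fold change of -0.09, with 0 of 16 higher and 1 lower at an unadjusted p under 0.05. That gene was *Ahsa1*, a co-chaperone of cytosolic Hsp90 (log2 fold change -0.18, edgeR adjusted p = 0.358). The ATF4 and CHOP arm gave other values. Of the 20 genes on its list 18 were tested, with a median log2 fold change of 0.34. With an unadjusted p under 0.05 in edgeR, 12 of the 18 were higher in CD1d-KO pMacs and 0 lower, against 7.35% and 5.01% of all genes. Of the 18, 14 had log2 fold changes above 0. The 4 below 0 were *Atf3* (-0.24), *Slc7a11* (-0.15), *Cebpb* (-0.05) and *Slc3a2* (-0.02). The summed list ran from 66222 to 116489 normalised counts in WT and from 63888 to 108622 in CD1d-KO libraries, and *Slc7a11* was its most abundant tested gene. At an adjusted p under 0.05, 4 rose (*Ddit3*, *Trib3*, *Chac1* and *Sesn2*), against 0.406% of all genes in either direction, and 0 passed both thresholds of the call. The count at an adjusted p under 0.05 was 8 with no filter on counts, 4 without replicate 2 and 0 without replicate 1, 3 or 5, with limma-trend or without the replicate block. It was 6 in DESeq2, against 2.96% of the genes to which DESeq2 gave an adjusted p. With 1 number left out, the median log2 fold change of the arm lay between 0.30 and 0.41. With 1 library left out and no block, it lay between 0.059 (without CD1d-KO replicate 3) and 0.54 (without WT replicate 3). It was 0.23 without WT replicate 1, and 10 genes were higher with an unadjusted p under 0.05 without WT replicate 3 but 0 in each of the other 7 such fits.

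*Ddit3* had 187, 299, 771 and 286 normalised counts in WT replicates 1, 2, 3 and 5 and 340, 492, 1266 and 492 in CD1d-KO pMacs. Each CD1d-KO library was above its partner, and number 3 was the highest in both genotypes (log2 fold change 0.77, 95% interval 0.60 to 0.93, edgeR adjusted p = 0.012). *Atf4* had 4080, 5393, 7117 and 4093 in WT and 4516, 6574, 8581 and 4785 in CD1d-KO pMacs, again highest in number 3, with a log2 fold change of 0.23 (95% interval 0.07 to 0.39, edgeR adjusted p = 0.227). The differences in log2 CPM within pairs 1, 2, 3 and 5 were 0.85, 0.72, 0.71 and 0.78 for *Ddit3*, 0.38, 0.53, 0.51 and 0.14 for *Herpud1*, and 0.05, 0.24, 0.28 and 0.16 for *Hspa5*. The difference between the ER genes and the ATF4 and CHOP arm was not tested as such. Some genes listed as markers of other cells also stood higher in the CD1d-KO library of all 4 pairs, as did 10.6% of all genes. On the mast cell list this was *Hdc* (log2 fold change 0.81, edgeR adjusted p = 0.0555), 1 of 5 tested. On the granulocyte list they were *Csf3r* (0.37, adjusted p = 0.164) and *S100a8* (0.83, adjusted p = 0.101), 2 of 5 tested. On the plasma cell list it was *Prdm1* (0.19, adjusted p = 0.358), 1 of 6 tested. The other 4 tested mast cell markers had log2 fold changes below 0. Of the 5 tested granulocyte markers, 3 had log2 fold changes above 0 and 2 below, and *Ly6g* had 0 counts in all 8 libraries. The summed mast cell markers ran from 384 to 1899 normalised counts in WT and from 931 to 3341 in CD1d-KO libraries, and the granulocyte markers from 2664 to 4844 and from 4181 to 6284. Most of each sum was 1 gene, so the sums do not describe the lists as a whole. *Hdc* alone ran from 310 to 1807 in WT and from 778 to 3287 in CD1d-KO libraries. *Csf3r* alone ran from 2526 to 4696 in WT and from 4011 to 6112 in CD1d-KO libraries. The part of such cells in the values of *Herpud1* and of the arm was not tested.

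**Figure D4:**
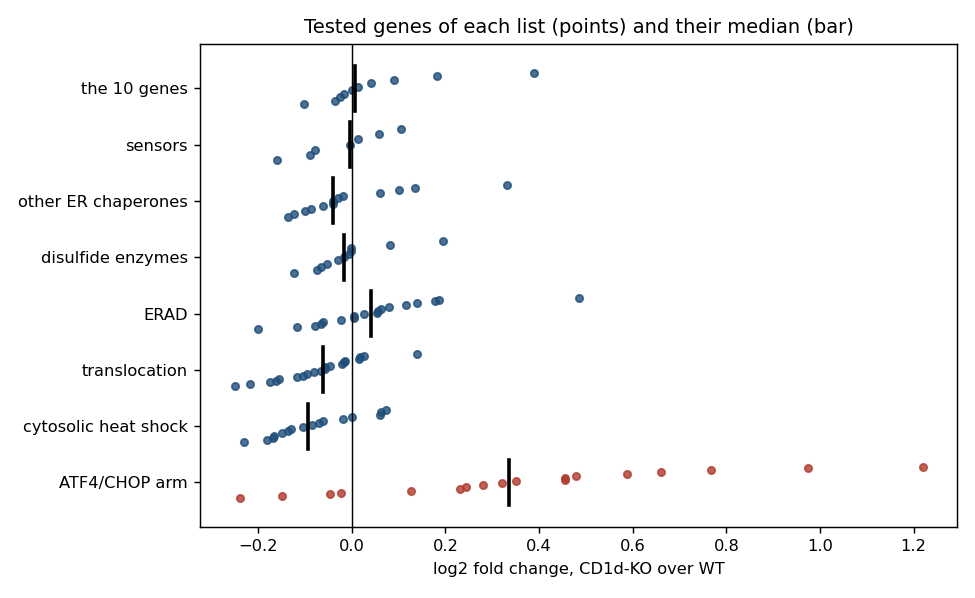
Log2 fold change of CD1d-KO over WT for each tested gene of 8 lists (points) and the median of each list (black bar). The ER lists and the heat shock genes (labelled cytosolic, as most of them are) have medians between -0.09 and 0.04, and the ATF4 and CHOP arm has a median of 0.34.

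The ER genes also differed in how they followed this arm from library to library. Over the 8 libraries, the Pearson's r with *Ddit3* was 0.927 for *Herpud1*, 0.924 for *Dnajb9*, 0.813 for *Hspa5* and 0.692 for *Xbp1*. For *Creld2*, *Hsp90b1*, *Pdia4*, *Calr*, *Edem1* and *Sdf2l1* it lay between -0.542 and -0.071. With *Atf4* the same 4 genes had r from 0.78 to 0.919 and the 6 others from -0.339 to 0.165. In these correlations, given as a description over 8 libraries, replicate number 3 is the highest point for each of the first 4 genes and for *Ddit3* and *Atf4*. Of the 18 tested genes of the arm, 15 differed among numbers at an adjusted p under 0.05 in edgeR.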

How the data were processed

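The 8 libraries hold single-end reads of polyadenylated pMac RNA, each from its own mouse. Reads were trimmed by the authors with Cutadapt, aligned with STAR 2.5.2a to GRCm38 and quantified over Ensembl genes with RSEM 1.3.0, per the labels and the study's methods. The strand setting is not given in the sources used here. Expected counts as deposited by the authors are not normalised and divide shared reads among genes. TPM values as deposited were made from the same reads by scaling for length and depth, and were used for levels between genes. Totals ran from 13698864 to 19059432 expected counts, and each genotype has 4 mice.

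With edgeR 4.0.16 in R 4.3.3, rounded counts were filtered by filterByExpr (13040 genes kept) and scaled by TMM. A quasi-likelihood model held replicate number and genotype, the covariates of the study, with Benjamini-Hochberg adjustment over all genes tested. A call needed a fold change above 1.5 with an adjusted p below 0.01. Intervals are 95% and come from the same fit, and log2 CPM values used a prior count of 2. DESeq2 1.42.0 and limma 3.58.1 (on log2(TPM + 1), pseudocount 1) were alternatives, with other scalings and filters, unrounded counts, a threshold of 0.05, no replicate block, and each number or library left out. The fits were tested on simulated data. Symbols came from GENCODE M21, which matched 48435 of 48795 IDs. Promoters came from RefSeq (GRCm38.p6).

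The replicate numbers were taken as pairs, as the study's model has replicate as a covariate, but what a number stands for is not stated. After removal of genotype means, same-numbered WT and CD1d-KO libraries correlated across genes with r = 0.487, 0.387, 0.505 and 0.207 for numbers 1, 2, 3 and 5. Across unlike numbers the largest r was -0.015, 0.025, 0.059 and 0.220 for WT libraries 1, 2, 3 and 5, and the last value exceeds that of the matching pair. The ER genes, the lists and the tests were chosen with earlier results of these data known. The genes named are the 10 ER genes, *Cd1d1*, *Ern1*, *Atf6*, *Eif2ak3*, *Atf4*, *Ddit3*, up to 4 genes of each other pathway list with the smallest unadjusted p under 0.05 that moved alike in all 4 pairs, the 5 genes most like the mean of the ER genes, and cell type markers. *Adgre1*, *Gata6*, *Jchain*, *Tnfrsf17*, *Ly6g*, *Mzb1*, *Igkc* and *S100a8* were added as markers after values had been seen. The other assays of the study were not analysed here.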

Additional observations from a re-analysis of the deposited data

Results flagged for a closer look

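A test for a single distant value (Dixon, critical value 0.829 for 4 samples) was run on 22 groups of 4 libraries and set 3 values apart, where chance sets apart about 1 in 20. *Herpud1* had 2253 normalised counts in CD1d-KO replicate 3, while the other CD1d-KO libraries had 1421 to 1549. *Dnajb9* had 2049 in the same library, against 1454 to 1552. *Cd1d1* had 60.6 in the library labelled CD1d-KO replicate 1, against 0 to 1.14. Without replicate 3 the log2 fold change of *Herpud1* was 0.35 (unadjusted p = 0.0101, edgeR adjusted p = 0.359).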

How the results depend on the processing

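None of the 10 ER genes was called under any of the alternatives run. *Herpud1*, *Hspa5* and *Edem1* kept their direction in all 20 alternative fits, and each of the other 7 changed sign in 1 to 8 of them. The count over all genes, 5 in the reported fit, was 236 with no filter on counts, 106 with DESeq2, 3 with limma-trend and 53 at an adjusted p under 0.05 with no fold threshold. Leaving out a replicate number or a library gave 3 to 22. The median log2 fold change of the ER genes ran from -0.143 (without CD1d-KO replicate 2) to 0.138 (without WT replicate 2) when 1 library was left out without the block, with -0.0307 and -0.0652 without WT replicates 1 and 3 and 0.05 and 0.0654 without CD1d-KO replicates 1 and 3. ER genes that differed among replicate numbers at an adjusted p under 0.01 were 2 in the reported fit, 8 with no filter on counts and 0 to 2 with a number left out, and the cause of the rise without a filter was not tested.

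Without the replicate block, 3 genes were called in all, 0 of them ER genes, 0 genes of the ATF4 and CHOP arm had an adjusted p under 0.05, and *Herpud1* had a log2 fold change of 0.40 (unadjusted p = 0.057, edgeR adjusted p = 0.997).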
